A study of Rattus norvegicus with 3 samples.

Results

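Complement components of the young rat testis were followed over 3 ages, using the 7 genes C1qa, C1qb, C1qc, C1s, C2, C3 and Cfd. They were chosen by symbol, through the RefSeq accession of each probe set, and each had 1 probe set. They make up 7 of the 26299 genes that the 26419 probe sets of an array stand for. Of these genes, 9627 had a symbol, and each accession without a symbol was counted as its own gene. Testes of untreated Wistar-Imamichi rats, a Wistar stock with no named mutation, were taken on postnatal days 6, 8 and 10, with the day of birth counted as day 1. Cy3-labelled total RNA of the whole organ was read on one-colour NimbleGen arrays, with 1 array for each day. How many animals each RNA came from is not stated in the labels. The submitters screened genes by a 2-fold difference between days, and that threshold is kept here.

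Complement is a set of proteins of blood and tissue fluid that tags microbes, dying cells and cell debris. In the classical pathway C1q, built of A, B and C chains encoded by C1qa, C1qb and C1qc, binds a target, and the attached protease C1s cleaves C4 and C2 to form an enzyme that cleaves C3. In the alternative pathway factor D, encoded by Cfd and also called adipsin, cleaves factor B to form a second C3-cleaving enzyme. The liver makes most of the circulating C3, macrophages and dendritic cells are the main source of C1q, and fat cells are the main source of factor D. In the testis, macrophages lie among the Leydig cells between the seminiferous cords.

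The RefSeq promoter table of rat assembly GRCr8 held 4 of the 7 members, C1qa, C1qb, C3 and Cfd, and these are also the members with the largest differences between days. The 250 bases before each gene's start are given 5′ to 3′ on the gene's own strand, with capitals where a motif searched for was found on either strand.
C1qa (chr5:154419934-154420183, minus strand): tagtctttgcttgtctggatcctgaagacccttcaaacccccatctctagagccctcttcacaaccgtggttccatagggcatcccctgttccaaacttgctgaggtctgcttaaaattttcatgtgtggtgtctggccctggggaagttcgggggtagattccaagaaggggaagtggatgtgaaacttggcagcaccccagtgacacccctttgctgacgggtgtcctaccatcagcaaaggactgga
C1qb (chr5:154407828-154408077, minus strand): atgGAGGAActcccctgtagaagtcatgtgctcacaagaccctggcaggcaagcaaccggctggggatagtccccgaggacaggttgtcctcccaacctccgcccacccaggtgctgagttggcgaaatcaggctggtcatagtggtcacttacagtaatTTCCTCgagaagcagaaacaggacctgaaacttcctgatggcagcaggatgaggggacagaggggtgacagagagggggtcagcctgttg
C3 (chr9:2201340-2201589, minus strand): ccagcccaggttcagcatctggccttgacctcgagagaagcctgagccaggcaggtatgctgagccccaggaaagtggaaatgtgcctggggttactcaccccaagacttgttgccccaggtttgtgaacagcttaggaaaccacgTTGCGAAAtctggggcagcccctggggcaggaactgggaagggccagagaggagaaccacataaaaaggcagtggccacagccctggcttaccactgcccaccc
Cfd (chr7:10465497-10465746, minus strand): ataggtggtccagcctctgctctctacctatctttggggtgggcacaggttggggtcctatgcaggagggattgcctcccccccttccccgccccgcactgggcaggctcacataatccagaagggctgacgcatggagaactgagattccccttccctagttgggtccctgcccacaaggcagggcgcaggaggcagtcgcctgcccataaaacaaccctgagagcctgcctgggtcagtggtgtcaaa

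Motifs searched in these windows, on both strands, were GAGGAA, the core bound by the myeloid factor PU.1, TTGCNNAA, bound by C/EBP factors and the TATA box TATAAA. C1qb held 2 matches to GAGGAA, 247 to 242 bases before the start and, on the other strand, 90 to 85 bases before it. C3 held 1 match to TTGCNNAA, 104 to 97 bases before the start. C1qa and Cfd held none of the 3. No matches overlapped. Over 27457 promoters of the same length, GAGGAA was found in 23.2%, TTGCNNAA in 9.20% and TATAAA in 13.1%. A match describes the letters and says nothing of binding in these testes.

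Because each day rests on 1 array, neither the spread between animals nor that between arrays is known, and the differences below come without p-values or a check in replicates. Effects of age, of the animals and of the array cannot be told apart. The only spread at hand is within arrays, between probe sets of the same gene: their log2 differences had a pooled SD of 0.40 for day 10 against day 6, 0.27 for day 8 against day 6 and 0.43 for day 10 against day 8. These rest on 64, 63 and 65 genes with several probe sets. The median SD over the same genes was lower, at 0.19, 0.15 and 0.24. Neither SD measures noise between animals or arrays. Each array was given a floor, the higher of 2 levels: its median, and the 95th percentile of the olfactory and vomeronasal receptor genes. The median was the higher level on each array, at intensities of 220, 221 and 203 on days 6, 8 and 10. A random-sequence control read 25.0, 24.6 and 25.6. Genes entered a comparison when 1 of its days, or both, lay above the floor. Testis markers were far above the floor on all 3 days, among them Ddx4 of germ cells (log2 11.17, 11.15 and 11.33), Amh of Sertoli cells (11.32, 11.15 and 10.60), Star of Leydig cells (11.78, 11.30 and 9.55) and Acta2 of peritubular myoid cells (15.31, 15.03 and 15.08). Beta-globin, Hbb, read 14.66, 14.87 and 15.20, so RNA of red blood cells was in each sample.

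**Figure D1:**
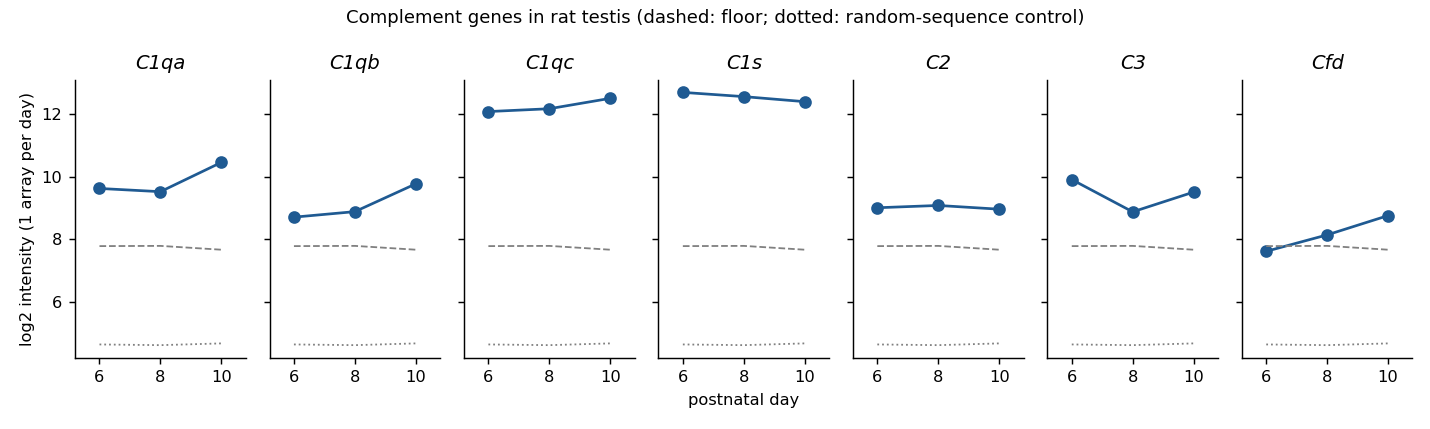
log2 intensity (vertical axis) of each of the 7 complement genes on postnatal days 6, 8 and 10 (horizontal axis), 1 point per array, with the floor dashed and the random-sequence control dotted. C1qa and C1qb are highest on day 10, C3 is lowest on day 8, C1s and C2 are nearly level, and Cfd starts under the floor on day 6. Levels of different probe sets are not comparable between panels.

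The C1q chains were higher on day 10. C1qa, the A chain, had linear intensities of 790 on day 6, 735 on day 8 and 1406 on day 10. C1qb, the B chain, had 418, 473 and 874 on the same days. C1qc, the C chain, had 4334, 4614 and 5808. For all 3 chains the day 10 array was the highest, and days 6 and 8 lay closer to each other than either did to day 10. Days 6 and 8 were also the closest over all genes compared, with 0.519% at least 2-fold higher and 0.978% lower. Between days 10 and 6, 8.57% were higher and 12.8% lower, and between days 10 and 8, 8.56% and 13.7%.

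On the log2 scale, the difference of day 10 against day 6 was 1.06 for C1qb (9.77 against 8.71, 2.09-fold higher), 0.83 for C1qa (10.46 against 9.63, 1.78-fold) and 0.42 for C1qc (12.50 against 12.08, 1.34-fold). Of the chains, only C1qb passed 2-fold. Against day 8, day 10 was higher by 0.94 for C1qa, 0.89 for C1qb and 0.33 for C1qc, none of them 2-fold as deposited. With each array centred on its median, C1qa and C1qb passed 2-fold in that step (1.06 and 1.01), as they did under quantile normalization (1.04 and 1.02); under cyclic loess normalization C1qa did (1.04) and C1qb had 0.99. For day 10 against day 6, the differences of C1qa and C1qb were 2.09 and 2.67 times the pooled SD between probe sets of the same gene, while that of C1qc was 1.06 times the SD. Between days 8 and 6 the chains differed by -0.10 (C1qa), 0.18 (C1qb) and 0.09 (C1qc), all within that SD. In whole-organ RNA, fewer cells of a type and less RNA per cell cannot be told apart, and the same holds for more.

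The 3 chains are neighbours in the genome. On rat chromosome 5 the order is C1qb, C1qc, C1qa, with 0 protein-coding genes between them in the RefSeq table. They span 5.55, 3.36 and 2.85 kb, introns included. The middle gene C1qc had the smallest log2 difference between days 10 and 6, at 0.42 against 1.06 for C1qb and 0.83 for C1qa. With 1 probe set each, and a pooled SD of 0.40 between probe sets of the same gene, whether the chains truly differ is not known.

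Cfd, the factor D protease, had intensities of 196, 282 and 433 on days 6, 8 and 10, in order of age, and lay under the floor on day 6. Its difference of day 10 against day 6 was 1.14, or at least 1.97-fold higher when day 6 is taken at its floor. Day 8 against day 6 gave 0.53 (at least 1.28-fold), and day 10 against day 8 gave 0.62 (1.53-fold). Each later day was thus higher than the one before. Markers of fat cells had no common direction, with 2 of the 4 compared positive and 2 negative between days 10 and 6. Adiponectin, Adipoq, read log2 5.09, 4.62 and 5.01, close to the random-sequence control (4.64, 4.62 and 4.68), and the fatty acid carrier Fabp4 read 6.63, 6.03 and 6.90, under the floor. Of 10 adipocyte markers with a probe set, 3 were above the floor on each day: Lipe and Cd36 throughout, with Lpl on days 6 and 8 and Cebpa on day 10. All 10 together summed to intensities of 2691, 2694 and 2548 on days 6, 8 and 10. Most of each sum came from Cd36 (1534, 1454 and 1204) and Lipe (458, 544 and 684). Lpl, lipoprotein lipase, was at least 1.54-fold lower on day 10 than on day 6, while Cebpa, a C/EBP factor of fat and other cells, was at least 1.19-fold higher. The lipase Lipe differed by 0.58 and the fatty acid transporter Cd36 by -0.35. Plin1 had no name match. The part of fat cells in the Cfd values was not tested.

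C3, the central protein of the cascade, was lowest on day 8. Its intensities were 962 on day 6, 470 on day 8 and 729 on day 10. Day 8 was 2.04-fold lower than day 6 (log2 8.88 against 9.91, a difference of -1.03), which was 3.82 times the pooled SD between probe sets of the same gene. Day 10 was 1.55-fold higher than day 8 (0.63) and 1.32-fold lower than day 6 (-0.40). C3 was the member with the largest difference in the first step, and only 0.860% of the 13496 genes compared had a more negative one. Of 11 hepatocyte markers, 2 were above the floor on day 6, 1 on day 8 and 2 on day 10, and albumin, Alb, was under it on all 3 days, at most log2 5.92 (day 10). Transferrin (Tf), which Sertoli cells also make, had intensities of 3442, 2577 and 4540 on days 6, 8 and 10, lower on day 8 than on day 6 by 0.42 on the log2 scale. It made up most of the list's summed intensity of 4147, 3183 and 5323. The fibrinogen gamma chain (Fgg) was under the floor on day 8 and at least 1.14-fold lower then than on day 6. Their part in the C3 values was not tested.

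C1s and C2, the classical pathway serine proteases among the members, were nearly level. C1s had intensities of 6628, 6034 and 5396 on days 6, 8 and 10, and C2 had 515, 542 and 499. Day 10 against day 6 differed by -0.30 for C1s and -0.05 for C2, within the pooled SD of 0.40. The C1s difference was larger than the median SD of 0.19, and C1s was lower on each later day. For both genes, each other pair of days also differed by less than the pooled SD of its comparison. The sign of the C2 difference turned positive with each array centred on its median (0.07) and under quantile normalization (0.06), so it has no direction here. C1s and C2 had the most similar 3-day profiles of any 2 members (a Euclidean distance of 0.19 between their centred log2 values), followed by C1qa and C1qb (0.21). Nearly level genes lie close on this measure even where their directions differ. Between days 8 and 6, C1s differed by -0.14 and C2 by 0.07.

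Counted together, 2 of the 7 members, C1qb and Cfd, were at least 2-fold higher on day 10 than on day 6, where 8.57% of 13955 genes were. The count of Cfd rests on a day 6 value under the floor, and with values raised to the floor only 1 member passed. None was 2-fold lower, where 12.8% of all genes were. Of the 5518 named genes with a span, which include all members, 4.48% were higher and 11.7% lower as deposited. The members' median difference was 0.42, against 0.02 for all genes compared, and 4 of the 7 were positive. That median was 0.19 over the members above the floor on both days and 0.14 with the trend by gene span subtracted. For day 8 against day 6, 0 members were 2-fold higher (0.519% of 13496 genes were) and 1, C3, was lower (0.978% of genes), with a median of 0.07 against 0.04. For day 10 against day 8, 0 members were 2-fold changed, where 8.56% of 13969 genes were higher and 13.7% lower, and the median was 0.62 against -0.01, or 0.26 with the span trend subtracted. Among all genes, 7.55% had a larger difference between days 10 and 6 than C1qb, 6.41% a larger one than Cfd, 12.1% than C1qa and 27.9% than C1qc.

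**Figure D2:**
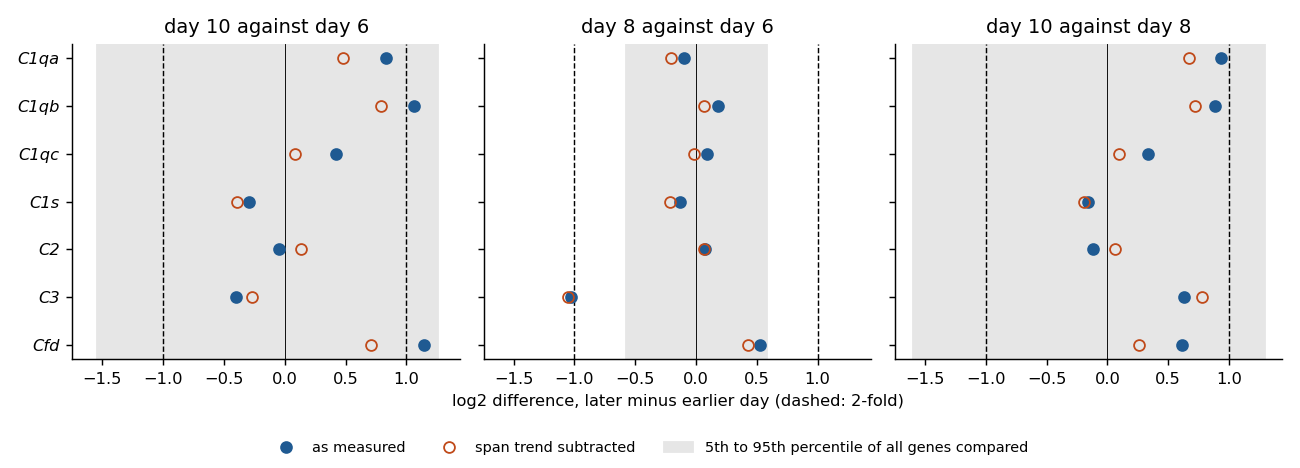
log2 difference, later minus earlier day (horizontal axis), of the 7 members in the 3 comparisons, as measured (filled) and with the trend by gene span subtracted (open). Dashed lines mark 2-fold and the grey band the 5th to 95th percentile of all genes compared. In day 8 against day 6, C3 at -1.03 is the member outside the band. In day 10 against day 6, C1qb and Cfd pass the dashed line as measured and lie inside it with the trend subtracted.

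The genomic span of a gene, from its first to its last base, moved with the difference between days 10 and 6. Over 5518 named genes Spearman's rho was -0.43, a description across genes of the same arrays. The members differ in span: Cfd covers 1.72 kb, the C1q genes 2.85 to 5.55 kb, C1s 12.2 kb, C3 26.9 kb and C2 30.3 kb. Cfd, C1qa and C1qc lay in the shortest of 10 equal groups by span, where the median difference was 0.37 and 12.5% of genes were at least 2-fold higher. C1qb lay in the next group, with a median of 0.29 and 8.15% of genes higher. With a lowess trend subtracted, the differences were 0.80 for C1qb, 0.71 for Cfd, 0.48 for C1qa and 0.09 for C1qc, and no member passed 2-fold between days 10 and 6. With the trend subtracted 4.4% of the 5518 genes were 2-fold higher and 8.79% lower, and as deposited 4.48% and 11.7% of the same genes were. For C3 between days 8 and 6 the value was -1.05 with the trend subtracted and -1.03 without. C3 between days 10 and 8 had 0.78 with it subtracted, and C1qa and C1qb kept positive values of 0.67 and 0.72 in that step. Cfd went from 0.62 to 0.26 there and C1qc from 0.33 to 0.10, both under the pooled SD of 0.43.

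**Figure D3:**
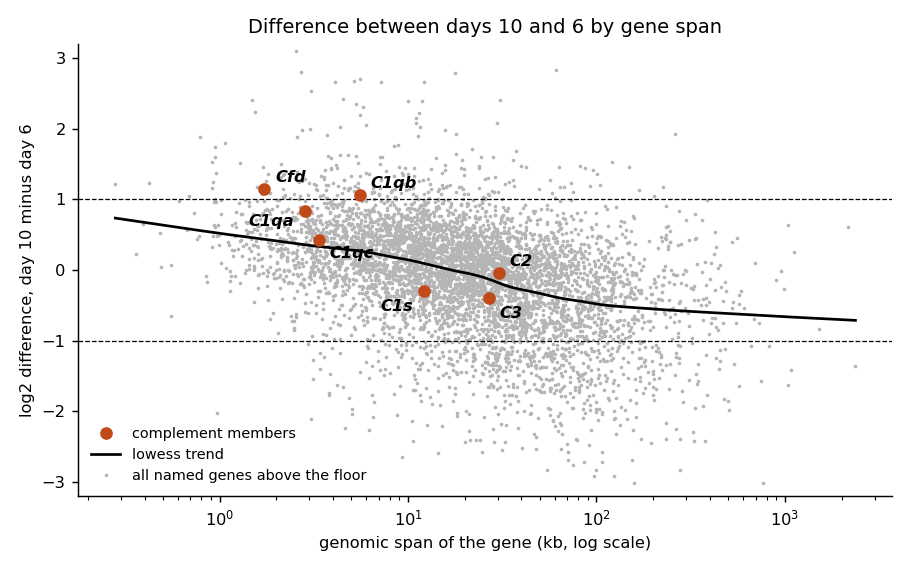
log2 difference of day 10 minus day 6 (vertical axis) against the genomic span in kb on a log scale (horizontal axis), for the 7 members (labelled, red) and all named genes above the floor (grey), with the lowess trend as a line and 2-fold dashed; 9 genes lie outside the plotted range. The short genes Cfd, C1qa and C1qb lie above a trend that is itself above 0 at their spans, C1qc lies close to it, and C3 and C1s lie below it.

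Macrophage markers had no common direction. Of 23 with a probe set, 18 were above the floor on day 6 and on day 8 and 16 on day 10. The summed intensity of the 23 was 20584, 21406 and 22936 on the 3 days, a measure in which bright genes weigh most. Their mean log2 went the other way, at 9.03, 8.99 and 8.93. Between days 10 and 6, 9 of the 18 compared had a positive and 9 a negative difference, with a median of 0.02. The receptor Csf1r, on which macrophages depend, differed by -0.34 (log2 11.02, 11.02 and 10.68 on days 6, 8 and 10). The lysosomal protein Cd68 differed by 0.30, Aif1 by 0.62, and Adgre1, the F4/80 antigen, was at least 1.26-fold lower, being under the floor on day 10. Cd163 had no name match. RT1-Db1, which encodes a class II antigen-presenting chain, was higher on day 10 by 1.45 (2.72-fold) and the actin-binding Coro1a 1.80-fold higher (0.85). Mpeg1, a pore-forming protein of macrophages, was 3.14-fold lower (-1.65), and Cybb, the phagocyte oxidase subunit, at least 1.51-fold lower. Subtracting the span trend left the list's median at 0.02 and gave Csf1r -0.21, Cd68 -0.13 and Aif1 0.37. RT1 genes belong to a family with near-identical members, so which member a probe set reads is uncertain. The part of macrophage number in the C1q values was not tested.

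**Figure D4:**
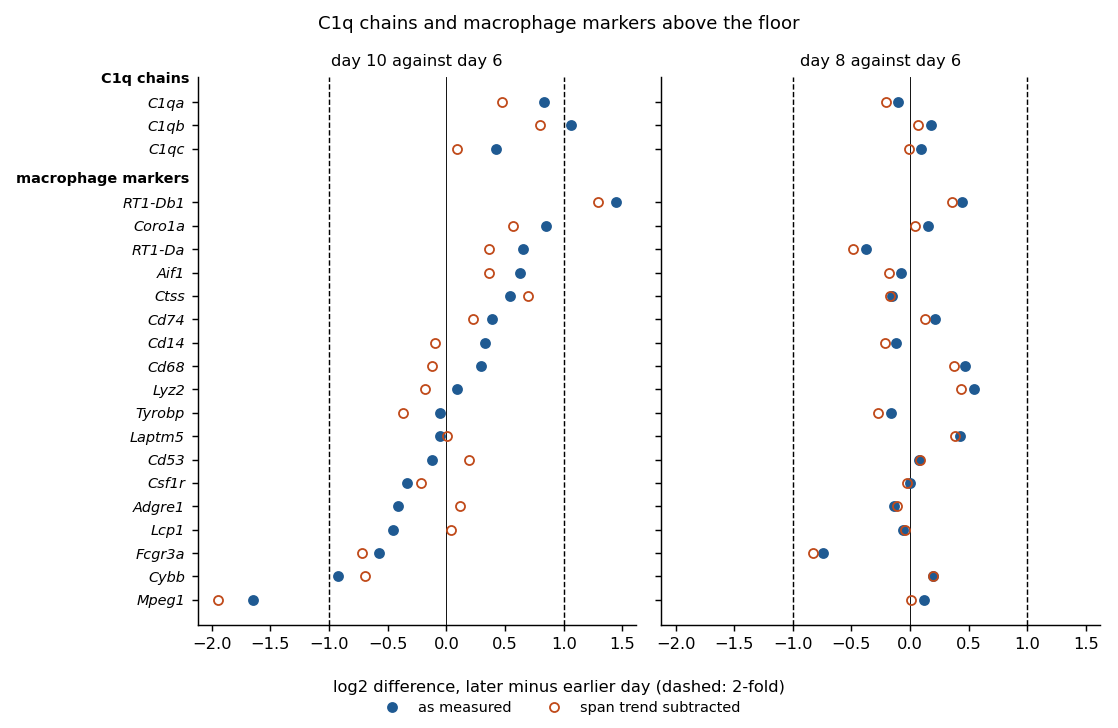
log2 difference (horizontal axis), in day 10 against day 6 (left) and day 8 against day 6 (right), of the 3 C1q chains and of the 18 macrophage markers above the floor, as measured (filled) and with the span trend subtracted (open); dashed lines mark 2-fold. The markers spread from 1.45 for RT1-Db1 to -1.65 for Mpeg1 around a median of 0.02, while the C1q chains lie at 0.42 to 1.06.

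The 5 named genes with a 3-day profile closest to the mean of the C1q chains, among 4977 above the floor on all 3 days, were Atp5mc1, RT1-S3, Mrpl19, Macrod1 and Fxyd1. Likeness was the Euclidean distance between log2 values centred on each gene's mean, over 3 arrays, and ran from 0.0034 for Atp5mc1 to 0.015 for Fxyd1. C1qa itself ranked 195, C1qb 314 and C1qc 705 by distance to the same mean. Many genes thus lay as near to the C1q mean as its own chains did, and 4 of the 5 nearest, all but Macrod1, span 2.97 to 4.77 kb.

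Other complement genes were taken from a list of 48 symbols, of which 32 had a probe set and 19 were above the floor on at least 1 day. Between days 10 and 6, 1 of the 19 was at least 2-fold higher and 5 were lower (8.57% and 12.8% of all genes), with a median of -0.10. Of the 5518 named genes with a span, 4.48% were higher and 11.7% lower as deposited. For day 8 against day 6, 0 of 18 passed 2-fold (0.519% of all genes higher and 0.978% lower). For day 10 against day 8, 0 of 19 were higher and 4 lower (8.56% and 13.7% of all genes). With the span trend subtracted, 0 were higher and 3 lower between days 10 and 6 (4.4% and 8.79% of the 5518 genes with a span).

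In the lectin pathway, mannose-binding lectins, ficolins and collectins bind sugars on a target and activate the MASP proteases, and both MASP genes were lower at each later day. Masp2, the protease that cleaves C4 and C2 in this pathway, was 2.52-fold lower on day 10 than on day 6, with log2 levels of 10.43, 9.56 and 9.10 on days 6, 8 and 10. Its partner Masp1 was 2.02-fold lower, with 9.19, 8.61 and 8.17. With the span trend subtracted Masp2 kept -1.39 and Masp1 had -0.60. Masp1 was also short of 2-fold under each other scaling tried (-0.97 to -0.90). Colec12, a membrane collectin and scavenger receptor, was 2.72-fold lower (11.28, 11.18 and 9.84), and -0.90 with the trend subtracted, its span being 188 kb. The ficolin Fcna was under the floor on days 6 and 8 and at least 1.04-fold higher on day 10 than on day 6, so its 2-fold count rests on a value under the floor. Fcnb, the other ficolin, differed by 0.43. Mbl1 and Mbl2, the mannose-binding lectins, were under the floor throughout.

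C4 and factor B, which join C2 and factor D in forming the C3-cleaving enzymes, had day 8 as their lowest day, as C3 did. C4a read log2 10.79, 10.38 and 10.68 on days 6, 8 and 10, C4b read 10.77, 10.27 and 10.85, and Cfb, factor B, read 8.69, 8.19 and 8.73. Day 8 was lower than day 6 by 0.40, 0.50 and 0.50 on the log2 scale, none of them 2-fold, and day 10 differed from day 6 by -0.10, 0.08 and 0.04. C4a and C4b are near-identical copies, so their probes may read the same RNA. Cfb is the next gene to C2 on chromosome 20, with 0 protein-coding genes between, and C2 read 0.07 higher on day 8 than on day 6. Of the 12094 genes above the floor on all 3 days, 25.8% were lowest on day 8, as were 2 of 6 members (C1qa and C3) and 6 of 16 genes of the longer list (Fcnb, C4a, C4b, Cfb, Cr1l and C1qbp).

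No inhibitor of complement above the floor passed 2-fold between days as deposited. Vitronectin did between days 10 and 6 with each array centred on its median (1.02). Serping1, the C1 inhibitor that blocks C1s and the MASPs, read log2 12.44, 12.47 and 12.56 on days 6, 8 and 10. Vtn, vitronectin, and Clu, clusterin, which both hinder the membrane attack complex, differed by 0.91 and 0.53 between days 10 and 6, and by 0.56 and 0.80 with the trend subtracted. Clu is also an abundant Sertoli cell product. Among membrane inhibitors, Cd55 differed by -0.23, the rodent C3 regulator Cr1l by -0.06 (mean of its probe sets) and Cd59b, which blocks pore assembly, by -0.70. Cd46 and factor I, Cfi, were under the floor on all 3 days.

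Of the 4 receptor genes compared, C3ar1, C5ar2 and Cd93 had their lowest value on day 10. C3ar1, the receptor of the C3a fragment, was at least 1.17-fold lower on day 10 than on day 6, with log2 levels of 7.90, 7.86 and 6.66 on days 6, 8 and 10. Cd93, an endothelial and myeloid surface protein once described as a C1q receptor, had 7.79, 7.99 and 5.71, and was at least 1.09-fold lower than on day 6 and at least 1.25-fold lower than on day 8. C5ar2, a receptor of the C5a fragment, was 2.40-fold lower on day 10 than on day 8 (8.12 against 9.38), and day 8 was 1.63-fold higher than day 6. For C3ar1 and Cd93 the 2-fold count rests on day 10 values under the floor, and raised to the floor neither passed 2-fold. C1qbp, a mostly mitochondrial protein named for binding C1q, differed by -0.08. C5ar1, Itgam and Vsig4 were under the floor on all 3 days, as were C6 and C9 of the terminal pathway, so their differences are not given.

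**Figure D5:**
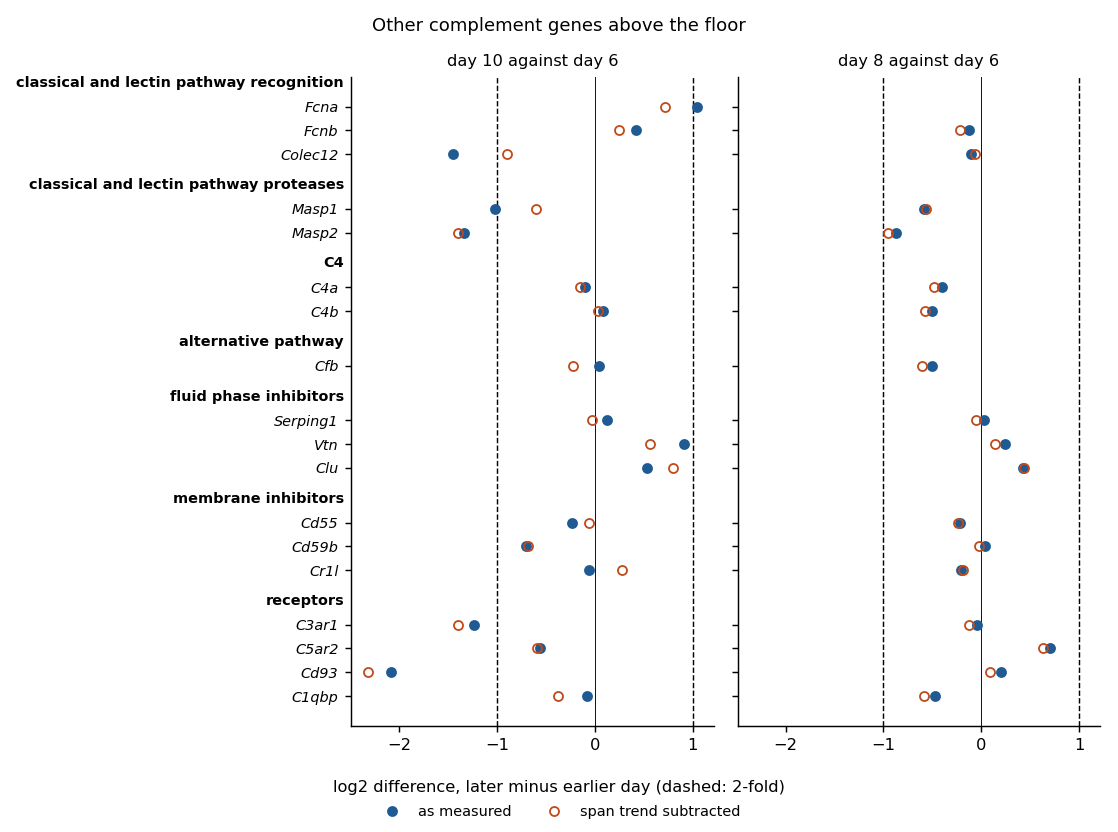
log2 difference (horizontal axis), in day 10 against day 6 (left) and day 8 against day 6 (right), of 18 of the 19 other complement genes above the floor, grouped by role, as measured (filled) and with the span trend subtracted (open); dashed lines mark 2-fold. Masp2, Masp1, Colec12, C3ar1 and Cd93 lie beyond 2-fold lower on the left, and C4a, C4b and Cfb lie between -0.40 and -0.50 on the right; Fcna has no point on the right because it was under the floor on both days.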

How the data were processed

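Per the labels' protocols, testis RNA was purified with TRIzol and then a spin column, DNase included. The values the authors deposited are linear intensities, 1 for each RefSeq accession on each array, made with RMA per the submitters' processing notes. A table of the whole series repeats them (largest difference 0). The RMA settings and the genome build are not stated there. RMA normally equalises the arrays' intensity distributions, which hides any change common to most genes. The deposited values were not fully equal between arrays, with medians of 220, 221 and 203 on days 6, 8 and 10.

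Intensities were taken to log2 (Python 3.11.15, pandas 2.3.3) and accessions matched to RefSeq symbols of GRCr8: 9747 of 26419 probe sets (36.9%) had 1 symbol and 0 had several. Probe sets of a symbol were averaged, and each accession without a symbol was kept as its own gene, giving 26299 genes, 9627 of them named. Differences are later minus earlier day. The span trend was a lowess fit on log10 span (statsmodels 0.14.6, fraction 0.3, 3 iterations), checked on simulated data. Alternatives changed the scaling (limma 3.58.1), floor, threshold, span trend and probe-set rule. Genes named are the members, the other listed complement genes above the floor (1 is not reported here), fixed markers, the macrophage, fat and liver markers with the largest differences between days 10 and 6, and the 5 genes closest to C1q. Members and lists were chosen with earlier results of these data known. The number of arrays limits the precision.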

Additional observations from a re-analysis of the deposited data

How the results depend on the processing

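No paired analysis was possible because each day has 1 array. The 1 member 2-fold lower on day 8 than on day 6, C3, kept its count under all 10 alternatives. Its difference was -1.08 to -1.04 over the 3 other scalings and -1.05 with the span trend subtracted. The other settings could not remove it. C3 has 1 probe set and lay above the floor on all 3 days, and the 1.5-fold threshold is looser. The 2 members 2-fold higher on day 10 than on day 6 became 1 when both days had to be above the floor or values were raised to it, and 0 with the span trend subtracted. For day 10 against day 8 the 0 members 2-fold higher became 2 with arrays centred or quantile normalized, 1 under cyclic loess and 4 at 1.5-fold. The count over all genes rose too. Of 13969 genes, 1196 were higher as deposited, 1487 with arrays centred and 1386 quantile normalized, as were 1333 of 13965 under cyclic loess. For the other complement genes, the 1 higher and 5 lower between days 10 and 6 became 2 higher with arrays centred, with the receptor floor, with no floor and at 1.5-fold, and 0 higher and 3 lower with both days above the floor, with values raised to it and with the span trend subtracted. Their 4 lower on day 10 than on day 8 became 2 with both days above the floor and with values raised to it. At 1.5-fold, day 8 against day 6 gave 1 higher and 1 lower and day 10 against day 8 gave 1 higher and 6 lower. Over all 13955 genes, 1520 were higher between days 10 and 6 with arrays centred, against 1196 as deposited. For the floor and 1.5-fold settings no share over all genes is at hand, so those counts cannot be set against one. The members' median difference of 0.42 between days 10 and 6 was 0.19 with both days above the floor and 0.14 with the span trend subtracted, and that of 0.62 between days 10 and 8 was 0.26 with the trend subtracted; the other settings gave 0.40 to 0.54 and 0.62 to 0.74. Of 105 differences of members recomputed, 97 kept their sign. The other 8 were C2 between day 10 and either earlier day and C1qc between days 8 and 6. Raising values to the floor altered only the differences of Cfd against day 6, so the rest of that setting could not change sign. With arrays centred, the median of all genes for day 10 against day 6 was 0.14 rather than 0.02, and 49.8% rather than 59.9% of changed genes were lower. Quantile normalization gave 54.8% lower. With 1 array per day, a difference within the spread between arrays was not detectable. Values near or under the floor of 203 to 221 are less certain than those far above it.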
